A study of Homo sapiens with 8 samples.

Results

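The genes described here are 10 transcriptional regulators of plasma cells and B cells, IRF4, PRDM1, IKZF1, IKZF3, POU2AF1, POU2F2, MEF2C, PAX5, BACH2 and BCL6. They were taken by name from the 58219 genes listed for each library, and all 10 were found. RNA was sequenced from H929 and KMS11, multiple myeloma (MM) cell lines grown in medium with serum that both carry the t(4;14) translocation. Cells of each line received fluvastatin at 2 µM, an inhibitor of HMG-CoA reductase in the mevalonate pathway, or its solvent ethanol, for 24 h. Each of the 4 combinations of line and treatment had 2 biological replicates, so that p values cover the spread between those samples of 2 established lines and not between patients or further lines. Total expected counts per library ran from 26702515 to 41910446.

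An antibody-secreting plasma cell arises when a B cell switches off one set of transcription factors and switches on another. PAX5 maintains B cell identity, BCL6 the germinal centre state, and BACH2 restrains differentiation. PRDM1 (Blimp-1) represses these B cell genes, while high IRF4 favours PRDM1 expression and sustains plasma cells, and MM cells depend on IRF4. The Ikaros family proteins IKZF1 and IKZF3 are zinc finger regulators that are degraded through cereblon in cells given lenalidomide. POU2AF1 (OCA-B) is a coactivator of the octamer-binding factors, among them POU2F2 (OCT2), and MEF2C is a MADS box factor active in B cell responses.

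Sequence around the start sites of the member genes was examined for the elements that these factors are known to bind, since BACH proteins with small Maf partners bind AP-1 type elements, octamer factors the octamer, and BCL6 sites related to those of STAT factors. RefSeq windows of GRCh38.p14, running from 250 bases before to 50 bases after a start site, were found for 8 of the 10 genes, 18 windows in all, and IKZF3 and POU2AF1 had none. On either strand, TGANTCA, the AP-1 type element, lay in 3 of the 18 windows and in 7.71% of all 35116 windows. The cyclic AMP response element TGACGTCA lay in 1 of the 18 and in 1.85% of all, the octamer ATTTGCAT in 1 of the 18 and in 1.77% of all, and TTCNNAGAA in 2 of the 18 and in 4.51% of all. The longer Maf recognition element, which contains TGANTCA, lay in 0 of the 18 and in 0.416% of all, an interferon response type element in 0 and 3.57%, and a MEF2 type element in 0 and 2.73%. Such matches describe letters in a window and were not tested for binding. The 30-base stretches below show the matches that lay wholly before a start, found for BCL6, MEF2C, BACH2 and PRDM1, the last of which BACH2 is known to repress. MEF2C held 7 of the 18 windows, and no match lay in those of IRF4, IKZF1, POU2F2 or PAX5. Each is read 5′ to 3′ along the gene's strand, and capitals mark the match.
BCL6, AP-1 type, 77 bases before a start, chr3:187736560-187736589, minus strand: cgcatctggagTGAGTCAttgccacttgtc
MEF2C, AP-1 type, 64 bases before a start, chr5:88785557-88785586, minus strand: aattattcctgTGACTCAttgtaccttaag
MEF2C, AP-1 type, 37 bases before the same start, chr5:88785530-88785559, minus strand: aagagagcagcTGACTCAttttagtttagc
PRDM1, AP-1 type, 42 bases before a start, chr6:106098888-106098917, plus strand: cttctacccagTGACTCAaagcactaaaag
BACH2, cyclic AMP response element, 82 bases before a start, chr6:90296907-90296936, minus strand: tggggagcgggTGACGTCAgcgccgaatgt
MEF2C, octamer, 60 bases before another start, chr5:88824386-88824415, minus strand: tcgtccatcctATTTGCATaacgagggacg
BCL6, TTCNNAGAA, 28 bases before another start, chr3:187745477-187745506, minus strand: gaagctcaaaTTCCGAGAAttgagctctgt

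The libraries carried the RNA of plasma cells. All 8 plasma cell markers examined (XBP1, MZB1, JCHAIN, TNFRSF17, SDC1, SLAMF7, CD38 and DERL3) had at least 1 TPM in both H929 replicates of each treatment, and 7 of the 8 did in KMS11, where CD38 was between 0.01 and 0.04 TPM. TPM is the abundance per transcript length that the authors deposited. Of 7 B cell markers, 1 reached 1 TPM in H929 (CD79B) and 3 did in KMS11 (CD79B, CIITA and CR2). CD22 was listed at 0 in every library, and MS4A1 and FCER2 were listed at 0 throughout KMS11. The 4 myeloid markers summed to at most 0.17 TPM and the erythroid pair, HBB and HBA1, to at most 0.94. PECAM1 (CD31), an endothelial marker that plasma cells also carry, had 6.27 and 7.52 TPM in H929 with ethanol, 5.87 and 7.98 with fluvastatin, and 0.87 to 1.48 in KMS11, while COL1A1 was at most 0.06 TPM and COL1A2 was listed at 0 in every library. Among T and NK cell markers, CD3E had 1.49 and 1.59 TPM in H929 with ethanol and 2.92 and 3.54 with fluvastatin, whereas CD3D was at most 0.15 TPM and NKG7 at most 0.35. The 3 together had 1.49 to 1.59 TPM in H929 with ethanol and 3.19 to 3.89 with fluvastatin, and their part in the results below was not tested. In bulk RNA, fewer cells of a type and less RNA per cell cannot be told apart.

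In ethanol, IRF4 was the most abundant member per transcript length in both lines and PAX5 the least. IRF4 had 192 to 194 TPM in the H929 replicates and 124 to 131 TPM in KMS11, the highest level of the 10 in either line. In H929 it was followed by PRDM1 (52.7 to 58.4 TPM), MEF2C (40.37 to 41.98), POU2AF1 (21.2 to 21.9), IKZF3 (18.5 to 20.6) and IKZF1 (7.93 to 8.99). BACH2 had 1.09 to 1.38 TPM there, BCL6 0.11 to 0.13, POU2F2 0.03 to 0.09 and PAX5 0.01 to 0.02. In KMS11 the order after IRF4 was IKZF3 (67.4 to 68.4 TPM), PRDM1 (31.5 to 32.6), POU2AF1 (23.1 to 27.2), MEF2C (6.74 to 7.35) and POU2F2 (1.72 to 2.49). IKZF1 (1.46 to 1.58), BCL6 (1.23 to 1.39), BACH2 (0.23 to 0.39) and PAX5 (listed at 0) were the lowest in that line. In neither order did the range of replicates of a gene overlap with that of its neighbour. With 2 replicates a group, a gap between ranges is a description and not a test.

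**Figure D1:**
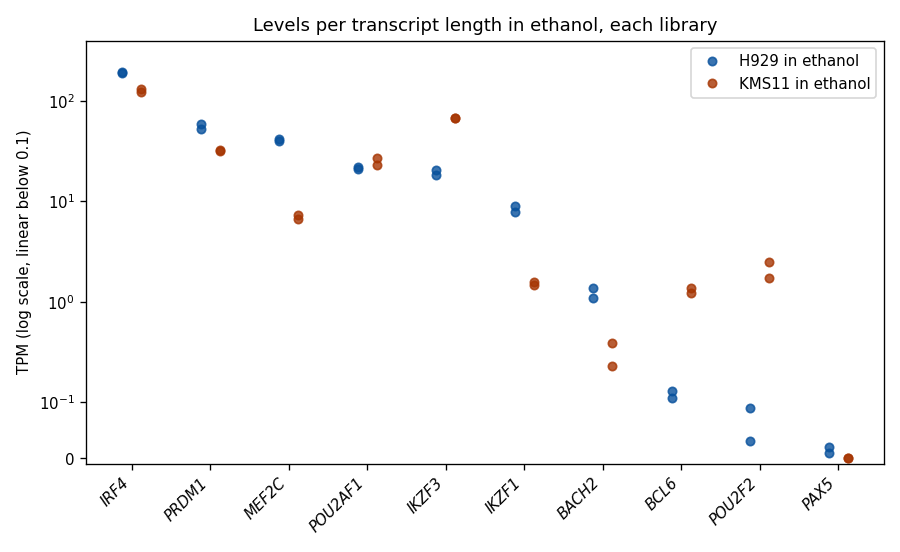
Levels of the 10 regulators in the 4 ethanol libraries, in TPM on a log scale that is linear below 0.1, with 1 point per library. IRF4 lies highest in both lines, MEF2C and IKZF1 lie lower in KMS11 than in H929, and IKZF3, BCL6 and POU2F2 lie higher.

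The resting lines differed in nearly every member. Of the 9 members that passed the filter on low counts, 8 differed between KMS11 and H929 in ethanol, 3 of them higher in KMS11 and 5 lower. Of all 13129 protein-coding genes tested 72% differed, 35.6% higher and 36.4% lower, so that the count is not particular to the members. BCL6 and POU2F2 passed the filter through the libraries in which they were higher, so that such counts describe the members that could be tested. IKZF3, BCL6 and POU2F2 were higher in KMS11, and IRF4, PRDM1, IKZF1, MEF2C and BACH2 were lower. POU2AF1 had a log2 difference of -0.15 (SE 0.09, adjusted p = 0.17). All adjusted p values here come from edgeR, by its quasi-likelihood F test and the method of Benjamini and Hochberg. PAX5, at 7 and 11 counts in H929 with ethanol and 0 in both KMS11 libraries, did not pass the filter and was not tested. The median log2 difference of the 9 was -1.07, against -0.02 over all genes tested.

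More members passed the threshold with fluvastatin in H929 than in KMS11, and a member that did not pass was not shown to be unchanged. Within H929, 8 of the 9 tested members changed, 7 of them upward (PRDM1, IKZF1, IKZF3, POU2F2, MEF2C, BACH2 and BCL6) and POU2AF1 downward. The background in that line was high, with 42% of all genes changed, 22.7% up and 19.3% down. Within KMS11 1 of the 9 changed, MEF2C, which fell, where 3.12% of all genes changed, 2.58% up and 0.533% down. With the lines fitted together and the line as a term, BACH2 and IKZF3 rose, 2 of 9, where 10.4% of all genes changed, 6.5% up and 3.93% down. The difference between the responses, taken as KMS11 minus H929 and tested as such, passed the threshold for 7 of the 9, where 23.2% of all genes did. The within-line tests, the difference and the comparison of the lines in ethanol draw on the same ethanol libraries and are not independent of each other. The median log2 fold change of the 9 was 0.43 in H929 and -0.09 in KMS11, against 0.02 and 0.00 over all genes tested.

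**Figure D2:**
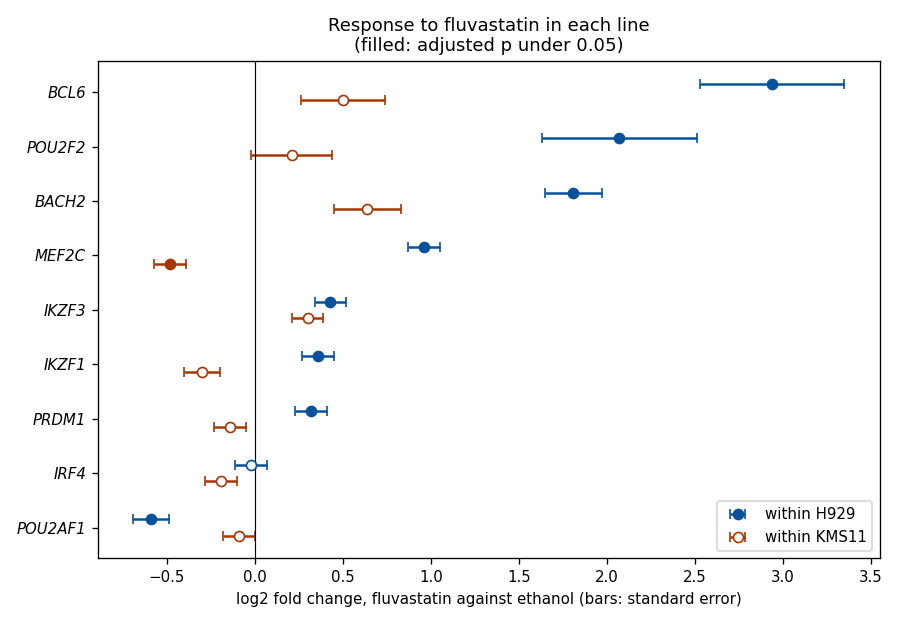
Log2 fold change with fluvastatin of the 9 tested regulators within H929 and within KMS11, with bars of 1 standard error and filled points where the adjusted p was under 0.05. BCL6, POU2F2, BACH2 and MEF2C had the most positive values in H929, from 0.96 to 2.94, and MEF2C lay on opposite sides of 0 in the lines.

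IRF4 (ENSG00000137265.14, chr6:391739-411443, plus strand, GRCh38), on which plasma cells and MM cells rely, did not pass the threshold with fluvastatin in either line. Its level in TMM-normalized counts relative to the protein-coding total of each library (CPM) was 2030 and 2060 in H929 with ethanol, 1980 and 2040 with fluvastatin, 902 and 1030 in KMS11 with ethanol, and 815 and 878 with fluvastatin. The H929 groups overlapped, the KMS11 groups did not, and every KMS11 library lay below every H929 library. The log2 fold change was -0.02 in H929 (SE 0.09, 95% interval -0.21 to 0.16, adjusted p = 0.87) and -0.19 in KMS11 (SE 0.09, 95% interval -0.38 to -0.01, adjusted p = 0.26). These normal intervals are narrower than the F test allows with 2 replicates a group, so that the one in KMS11 does not show a change. Between the lines in ethanol IRF4 was lower in KMS11 by a log2 difference of -1.08 (SE 0.09, adjusted p = 4.3e-06). Of the summed TPM of 9 IRF genes, IRF4 took 70.0% and 74.3% in H929 with ethanol and 64.0% and 67.1% with fluvastatin. In KMS11 these shares were 64.8% and 66.5%, then 59.5% and 62.3%. In both lines the share was lower with fluvastatin in each library, and in H929 IRF9, a partner of STAT proteins in interferon signalling, rose by a log2 fold change of 1.44 (SE 0.17, adjusted p = 0.00017).

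PRDM1 (ENSG00000057657.15, chr6:105993463-106109939, plus strand), the repressor that ends the B cell programme, rose in H929. Its level was 404 and 379 CPM in H929 with ethanol, 496 and 482 with fluvastatin, 180 and 193 in KMS11 with ethanol, and 163 and 174 with fluvastatin. Both fluvastatin libraries of H929 lay above both ethanol libraries, and those of KMS11 lay below theirs. The log2 fold change was 0.32 in H929 (SE 0.09, adjusted p = 0.015) and -0.14 in KMS11 (SE 0.09, adjusted p = 0.36). In ethanol it was lower in KMS11 by a log2 difference of -1.07 (SE 0.09, adjusted p = 2.9e-06). The call in H929 was lost when single libraries were left out, with adjusted p = 0.11 when H929 ethanol replicate 2 was absent, 0.08 and 0.055 without H929 fluvastatin replicate 1 or 2, and 0.061 and 0.06 without KMS11 ethanol replicate 1 or 2. TENT5C, a poly(A) polymerase expressed in plasma cells, and KIAA0040 had the patterns nearest to that of PRDM1, at root mean square distances of 0.06 and 0.08 in log2 CPM over the 8 libraries, each gene centred on its mean, where the median gene lay at 0.82.

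The Ikaros genes IKZF1 (ENSG00000185811.16, chr7:50304068-50405101, plus strand) and IKZF3 (ENSG00000161405.16, chr17:39757718-39864312, minus strand) differed between the lines in opposite directions, with IKZF1 lower and IKZF3 higher in KMS11. IKZF1 had 88.1 and 84.1 CPM in H929 with ethanol, 107 and 115 with fluvastatin, 11.8 and 11.7 in KMS11 with ethanol, and 9.86 and 9.24 with fluvastatin. The H929 libraries were higher with fluvastatin and the KMS11 libraries lower, with no overlap in either line. The rise in H929 was 0.36 on the log2 scale (SE 0.09, adjusted p = 0.011), and the value in KMS11 was -0.30 (SE 0.10, adjusted p = 0.15). The call in H929 was lost when H929 ethanol replicate 2 (adjusted p = 0.082) or H929 fluvastatin replicate 2 (adjusted p = 0.099) was left out. In ethanol IKZF1 was lower in KMS11 by a log2 difference of -2.88 (SE 0.10, adjusted p = 9.7e-09), a ratio of 0.136.

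IKZF3 had 280 and 263 CPM in H929 with ethanol, 354 and 377 with fluvastatin, 748 and 775 in KMS11 with ethanol, and 914 and 961 with fluvastatin. In both lines the fluvastatin libraries lay above the ethanol libraries. The log2 fold change was 0.43 in H929 (SE 0.09, adjusted p = 0.0031), 0.30 in KMS11 (SE 0.09, adjusted p = 0.094) and 0.36 with the lines together (SE 0.07, adjusted p = 0.022). The response in KMS11 minus that in H929 was -0.13 (SE 0.12, 95% interval -0.37 to 0.11, adjusted p = 0.48). The call with the lines together was lost without any H929 library (adjusted p = 0.065 and 0.091 without ethanol replicate 1 or 2, 0.079 and 0.068 without fluvastatin replicate 1 or 2) and without KMS11 ethanol replicate 1 or 2 (0.06 and 0.062). In ethanol IKZF3 was higher in KMS11 by a log2 difference of 1.49 (SE 0.09, adjusted p = 2.9e-07). Per transcript length, IKZF3 exceeded IKZF1 by a ratio of 2.29 and 2.33 in the H929 ethanol replicates and 2.56 and 2.33 with fluvastatin. In KMS11 the ratio was 42.7 and 46.9 with ethanol and 60.2 and 62.4 with fluvastatin. Of the summed TPM of the 5 Ikaros genes, IKZF3 took 57.3% and 58.0% in H929 with ethanol and 86.0% and 87.5% in KMS11 with ethanol.

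POU2AF1 (ENSG00000110777.11, chr11:111352255-111455630, minus strand), the octamer coactivator, was the member that fell in H929. Its level was 109 and 118 CPM in H929 with ethanol, 74.7 and 75.7 with fluvastatin, 105 and 98.8 in KMS11 with ethanol, and 101 and 90.6 with fluvastatin. In CPM the H929 groups lay apart and the KMS11 groups overlapped. In TPM the fluvastatin libraries lay below the ethanol libraries in both lines. The H929 values were 21.94 and 21.21, then 15.66 and 17.60, and those of KMS11 27.21 and 23.13, then 21.49 and 20.92. The log2 fold change was -0.59 in H929 (SE 0.10, adjusted p = 0.0009) and -0.09 in KMS11 (SE 0.09, 95% interval -0.27 to 0.10, adjusted p = 0.62). With the lines together POU2AF1 had a value of -0.34 (adjusted p = 0.089), which became -0.44 with an adjusted p = 0.043 when KMS11 fluvastatin replicate 1 was left out. ZNF576 and TMED3 had the nearest patterns to POU2AF1, at distances of 0.03 and 0.05, where the median gene lay at 0.54.

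POU2F2 (ENSG00000028277.21, chr19:42086110-42196585, minus strand), the octamer factor of B cells, was scarce in H929. It had 11 and 3 counts in H929 with ethanol, 20 and 32 with fluvastatin, 357 and 380 in KMS11 with ethanol, and 343 and 400 with fluvastatin. Scaled to CPM, these were 0.374 and 0.12, then 0.878 and 1.29 in H929, and 9.32 and 10.4, then 12.4 and 10.4 in KMS11. All H929 libraries lay far below all KMS11 libraries, and the H929 fluvastatin libraries lay above the ethanol libraries. The log2 fold change in H929 was 2.07 (SE 0.44, adjusted p = 0.004), and the 14 summed ethanol counts and 52 fluvastatin counts gave a CPM ratio of 4.24 (exact 95% binomial interval 2.32 to 8.29, which covers counting error only). In KMS11 the value was 0.21 (SE 0.23, 95% interval -0.24 to 0.66, adjusted p = 0.62). The rise in H929 was 3.14 without H929 ethanol replicate 1, and 1.53 without H929 ethanol replicate 2, on the log2 scale. On the TPM scale the H929 values were 0.03 and 0.09 with ethanol and 0.21 and 0.15 with fluvastatin, and by limma on log2(TPM + 1) the rise was 0.15 and did not pass the threshold (adjusted p = 0.35). In KMS11 the TPM values were 2.49 and 1.72, then 1.65 and 1.88, and the value by limma was -0.16 (adjusted p = 0.44), opposite in sign to that from counts. In ethanol POU2F2 was higher in KMS11 by a log2 difference of 5.24 (SE 0.35, adjusted p = 7e-07). Of the summed TPM of the 3 octamer-binding POU2 genes, POU2F2 took 0.89% and 3.12% in H929 with ethanol, 35.1% and 25.3% in KMS11 with ethanol.

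MEF2C (ENSG00000081189.15, chr5:88717117-88904257, minus strand) moved in opposite directions in the lines. Its level was 264 and 259 CPM in H929 with ethanol, 483 and 534 with fluvastatin, 32.7 and 33.1 in KMS11 with ethanol, and 23.0 and 24.1 with fluvastatin. The fluvastatin libraries were well above the ethanol libraries in H929 and below them in KMS11. The log2 fold change was 0.96 in H929 (SE 0.09, adjusted p = 3.7e-05), a ratio of 1.94, and -0.48 in KMS11 (SE 0.09, adjusted p = 0.024), a ratio of 0.716. Without KMS11 ethanol replicate 1, KMS11 ethanol replicate 2 or KMS11 fluvastatin replicate 1 the fall in KMS11 no longer passed the threshold (adjusted p = 0.21, 0.22 and 0.089), and with a fit of the KMS11 libraries alone its adjusted p was 0.073. In ethanol MEF2C was lower in KMS11 by a log2 difference of -2.99 (SE 0.10, adjusted p = 5.1e-09). Of the summed TPM of 4 MEF2 genes it took 55.8% and 59.1% in H929 with ethanol and 64.4% and 65.6% with fluvastatin, against a mean of 21.5%, then 12.7%, in KMS11. MEF2A, its most widely expressed relative, also rose in H929, by a log2 fold change of 1.60 (SE 0.12, adjusted p = 1.4e-05).

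**Figure D3:**
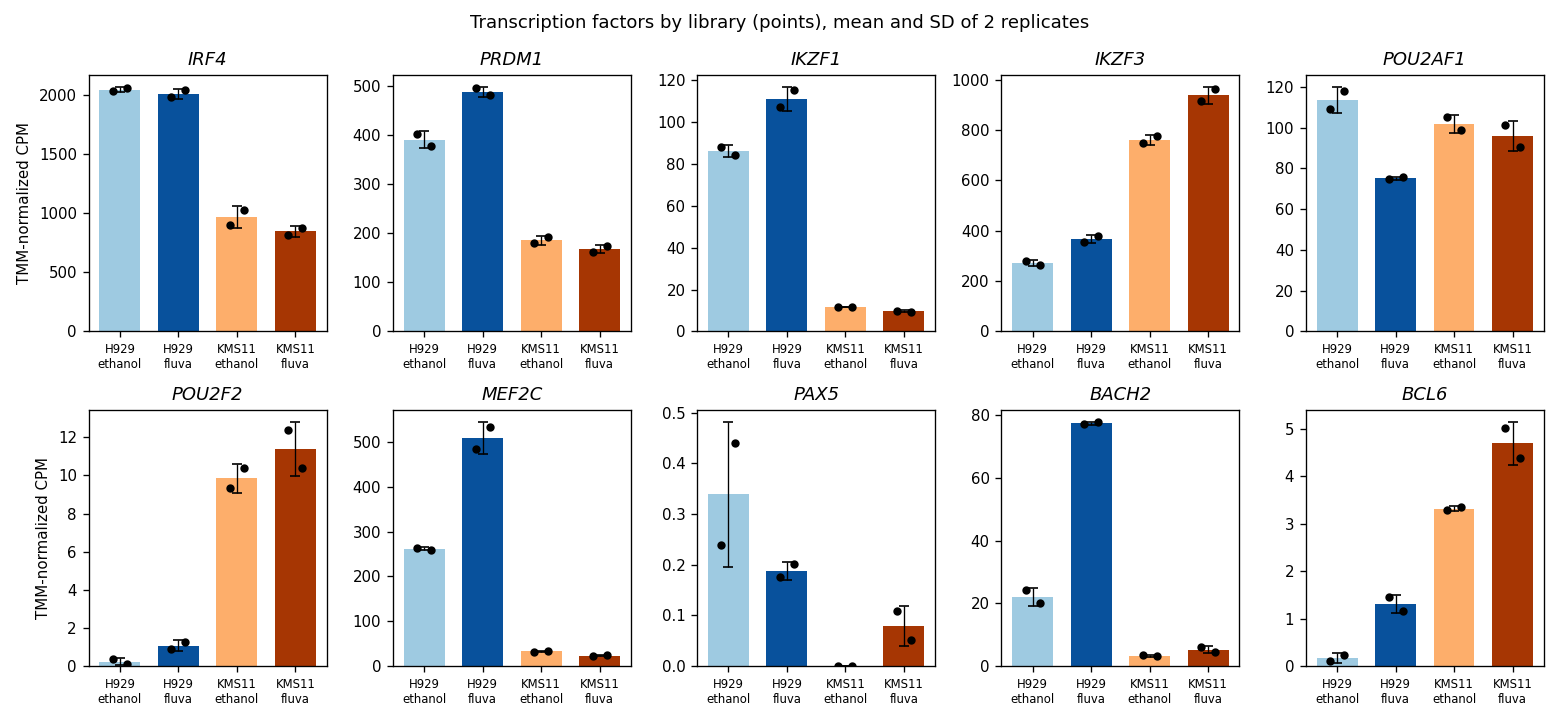
Level of each of the 10 regulators in TMM-normalized CPM, with 1 panel per gene and its own axis from 0, points for the 8 libraries, and bars and error bars for the mean and SD of 2 replicates. The fluvastatin libraries of H929 stand above its ethanol libraries for MEF2C, BACH2 and BCL6 and below them for POU2AF1, and PAX5 stays under 0.5 CPM in all 8 libraries.

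Of the B cell factors, BACH2 and BCL6 rose in H929 from low levels, and PAX5 stayed near 0. BACH2 (ENSG00000112182.14, chr6:89926528-90296843, minus strand), which delays plasma cell differentiation, had 24.2 and 20.0 CPM in H929 with ethanol, 77.0 and 77.7 with fluvastatin, 3.63 and 3.15 in KMS11 with ethanol, and 6.17 and 4.46 with fluvastatin. In CPM the fluvastatin libraries lay above the ethanol libraries in both lines. On the TPM scale this held in H929. The KMS11 groups overlapped there, at 0.39 and 0.23 TPM with ethanol and 0.61 and 0.36 with fluvastatin. BACH2 rose in H929 by a log2 fold change of 1.81 (SE 0.16, adjusted p = 3.1e-05), a ratio of 3.5, and with the lines together by 1.28 (SE 0.24, adjusted p = 0.019). The value in KMS11 was 0.64 (SE 0.19, adjusted p = 0.099), and it was 0.82 without KMS11 fluvastatin replicate 2. With the lines together the call was lost without H929 ethanol replicate 1 (adjusted p = 0.065), H929 ethanol replicate 2 (0.079) or H929 fluvastatin replicate 1 (0.071). In ethanol BACH2 was lower in KMS11 by a log2 difference of -2.70 (SE 0.18, adjusted p = 6.4e-07). It took 10.9% and 8.04% of the summed TPM of BACH1 and BACH2 in H929 with ethanol, 24.3% and 23.7% with fluvastatin, and at most 1.63% in any KMS11 library.

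BCL6 (ENSG00000113916.17, chr3:187721377-187745725, minus strand), the repressor of the germinal centre, had 3 and 6 counts in H929 with ethanol, 33 and 29 with fluvastatin, 126 and 123 in KMS11 with ethanol, and 139 and 168 with fluvastatin. In CPM these were 0.102 and 0.24, then 1.45 and 1.17 in H929, and 3.29 and 3.36, then 5.02 and 4.38 in KMS11. The fluvastatin libraries lay above the ethanol libraries in both lines, and every KMS11 library lay above every H929 library. In H929 the log2 fold change was 2.94 (SE 0.41, adjusted p = 0.0004), and the 9 summed ethanol counts and 62 fluvastatin counts gave a CPM ratio of 7.87 (exact 95% binomial interval 3.89 to 18.0). It was 2.42 without H929 ethanol replicate 1 and 3.63 without H929 ethanol replicate 2. On the TPM scale the H929 values were 0.11 and 0.13 with ethanol and 0.33 and 0.36 with fluvastatin, with transcript lengths assigned by RSEM of 596 and 1004 bases, then 2187 and 1726, and the rise by limma on log2(TPM + 1) was 0.26 (adjusted p = 0.029). In KMS11 the value was 0.50 (SE 0.24, 95% interval 0.03 to 0.96, adjusted p = 0.25). This normal interval is narrower than the F test allows and does not show a change. On the TPM scale the KMS11 values were 1.39 and 1.23 with ethanol and 1.08 and 0.89 with fluvastatin, lower rather than higher, with a mean transcript length assigned by RSEM of 1890 bases in ethanol and 3101 bases with fluvastatin. In ethanol BCL6 was higher in KMS11 by a log2 difference of 4.29 (SE 0.37, adjusted p = 3.5e-06).

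PAX5 (ENSG00000196092.12, chr9:36833269-37034268, minus strand), the keeper of B cell identity, had 7 and 11 counts in H929 with ethanol and 4 and 5 with fluvastatin. In KMS11 it had 0 in both ethanol libraries and 3 and 2 with fluvastatin. All 8 libraries were at the edge of detection, and the 18 and 9 summed counts of H929 gave a CPM ratio of 0.571 (exact 95% binomial interval 0.226 to 1.34), so that no change in PAX5 was detectable at this depth.

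The responses of the lines differed for 7 members by the test of the difference itself, given as KMS11 minus H929 on the log2 scale. The difference was negative for BCL6 (-2.45, SE 0.49, adjusted p = 0.0071), POU2F2 (-1.86, SE 0.50, adjusted p = 0.025), MEF2C (-1.44, SE 0.13, adjusted p = 0.00015), BACH2 (-1.17, SE 0.24, adjusted p = 0.0088), IKZF1 (-0.66, SE 0.14, adjusted p = 0.0091) and PRDM1 (-0.46, SE 0.12, adjusted p = 0.025). It was positive for POU2AF1 (0.51, SE 0.13, adjusted p = 0.024), but by limma on log2(TPM + 1) that difference was 0.13 (adjusted p = 0.64). Negative differences were found in 11.5% of all genes tested and positive ones in 11.7%. For IRF4 the value was -0.17 (SE 0.13, 95% interval -0.43 to 0.09, adjusted p = 0.39). The value of POU2F2 was -2.93 without H929 ethanol replicate 1. MEF2C and BCL6 kept the call without each library in turn. In most of these fits the share of all genes past the threshold was lower too, so that lost calls are not particular to the members. Without KMS11 ethanol replicate 1 the members past the threshold were 2, and BACH2 and IKZF1 lost their calls there, with adjusted p = 0.051 and 0.057. The call of PRDM1 was lost without each library other than KMS11 fluvastatin replicate 2 (adjusted p from 0.051 to 0.14). That of POU2AF1 was lost without each library other than H929 ethanol replicate 1 and KMS11 fluvastatin replicate 2 (0.051 to 0.11), and that of POU2F2 without H929 ethanol replicate 2, H929 fluvastatin replicate 2 or either KMS11 ethanol replicate (0.058 to 0.11). The members past the threshold were 4 without H929 ethanol replicate 2, H929 fluvastatin replicate 2 or KMS11 ethanol replicate 2.

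**Figure D4:**
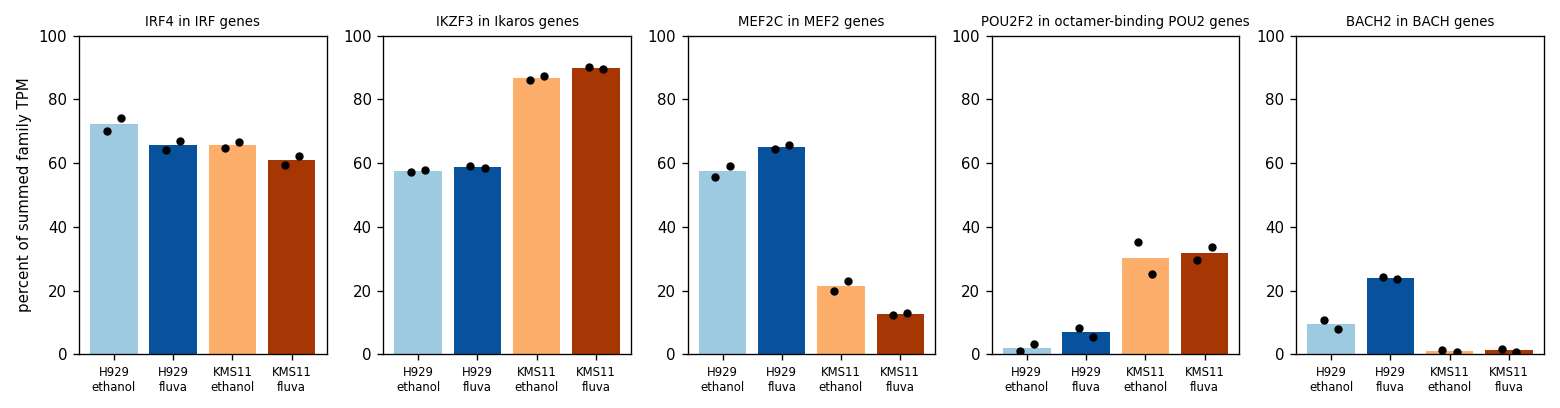
Share of the summed TPM of its gene family taken by IRF4, IKZF3, MEF2C, POU2F2 and BACH2, in percent, with points for the 8 libraries and bars for the mean of 2 replicates. IKZF3 takes 57.3% to 59.2% of Ikaros transcripts in H929 and 86.0% to 90.1% in KMS11, and the MEF2C share is higher with fluvastatin in H929 and lower in KMS11.

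The mean transcript length that RSEM assigns to a gene, weighted by the abundance of its isoforms, also set the lines apart for some members. For PRDM1 it ran from 3436 to 3540 bases over the H929 libraries and from 3985 to 4212 bases in KMS11. For POU2AF1 it was 2508 and 2752 bases in H929 with ethanol, and 2382 and 2205 with fluvastatin. The groups did not overlap, and the KMS11 values ran from 2862 to 2943. For BACH2 the KMS11 replicates lay far apart, at 6614 and 9108 bases with ethanol and 6005 and 8011 with fluvastatin. In H929 its length was 8420 and 8662 bases with ethanol and 7571 and 7527 with fluvastatin, a shift smaller than that spread. IKZF1 moved the other way, from 4793 and 5088 to 5364 and 5205 bases in H929, while in KMS11 it went from 5376 and 5323 to 4930 and 4834. IKZF3 went from 6592 and 6775 to 6903 and 7258 in H929. These lengths are estimates from short reads. Which isoforms changed was not analysed here, and an exact permutation test of 2 replicates against 2 cannot pass the threshold.

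**Figure D5:**
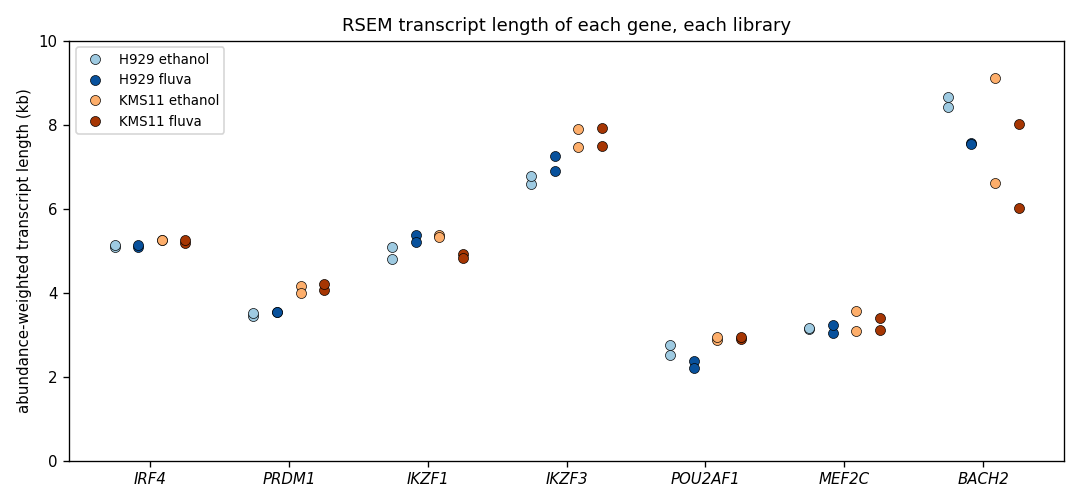
Abundance-weighted transcript length assigned by RSEM to the 7 regulators with at least 10 counts in every library, in kilobases, with 1 point per library. PRDM1 is longer in KMS11 than in H929, POU2AF1 and BACH2 are shorter with fluvastatin in H929, and the values of IRF4 and MEF2C overlap between treatments in H929.

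Among the other members with enough counts, the nearest patterns over the 8 libraries were those of MED17 and EEF1A1 to IRF4 (distances 0.07 and 0.08), ZNF275 and UBASH3B to IKZF1 (0.10 and 0.11), and MXI1 and RFFL to IKZF3 (0.06 and 0.08). HS3ST3B1 and SIDT1 lay nearest to MEF2C (0.19 and 0.21) and OAS3 and DDIT4 to BACH2 (0.22 and 0.25). OAS3 had 5 and 5 counts in H929 with ethanol, 15 and 15 with fluvastatin, and 0, 0, 1 and 0 in KMS11. Its fitted log2 fold change in KMS11 was 2.23, against 0.64 for BACH2, and its difference between the lines in ethanol -5.51, against -2.70, so that the small distance was not matched by its fitted values. The likeness is that of 8 libraries in 4 groups, most of it between the lines, and no test was made.

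Genes of the plasma cell programme, a list of 19 with 18 tested, moved both ways in H929. There 7 rose and 7 fell, where 42% of all genes changed, at a median log2 fold change of -0.02 against 0.02 over all genes. HERPUD1 and CREB3L2 rose by 0.85 and 0.83 on the log2 scale (adjusted p = 0.00014 and 0.00075). ELL2, JCHAIN, PIM2, TXNDC5 and TENT5C rose by 0.53, 0.36, 0.33, 0.32 and 0.28 (adjusted p = 0.0022, 0.022, 0.027, 0.028 and 0.044). These risers were named after their values were seen. SDC1, the plasma cell surface proteoglycan CD138, went from 753 and 621 CPM to 376 and 274, a log2 fold change of -1.08 (SE 0.17, adjusted p = 0.00086). SLAMF7, a surface receptor and antibody target in MM, fell by 0.98 on the log2 scale (SE 0.13, adjusted p = 0.0003), PRDX4, an ER peroxiredoxin, by 0.87 (SE 0.13, adjusted p = 0.00058), and MZB1, an ER cochaperone for immunoglobulin, by 1.02 (SE 0.25, adjusted p = 0.0086). The call of MZB1 was lost without H929 ethanol replicate 1 (a value of -0.77) or H929 fluvastatin replicate 2 (-0.72). Without those libraries the list had fewer calls, and so had all genes tested. XBP1, the factor that drives secretory capacity, fell in H929 by 0.34 on the log2 scale (adjusted p = 0.0083). Its response in KMS11 minus that in H929 was -0.06 (adjusted p = 0.77). In KMS11, where 3.12% of all genes changed, it was the 1 gene of the list that fell, by 0.40 (SE 0.08, adjusted p = 0.035). That call was lost without 6 of the 8 libraries, H929 fluvastatin replicate 1 and KMS11 fluvastatin replicate 2 excepted, at values of -0.47 to -0.37. In ethanol 13 genes of the list were lower and 4 higher in KMS11, where 36.4% of all genes were lower and 35.6% higher, at a median of -1.30 against -0.02. CD38, at 165 and 167 CPM in H929 and 0.104 and 0.301 in KMS11, differed by -9.66 (SE 0.20, adjusted p = 5.8e-10).

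Most B cell identity genes, 10 of 18 tested, were low in both lines. In ethanol CD79B had a mean of 5.29 TPM in H929. In KMS11 with ethanol CD79B, CR2 and CIITA had means of 12.3, 8.16 and 7.87 TPM. In H929 4 rose, or 3 without FCER2, and 1 fell (CR2), where 42% of all genes changed, at a median of 0.57 against 0.02. BANK1, a B cell scaffold protein, went from 1.32 and 1.60 CPM to 9.22 and 9.30, a log2 fold change of 2.66 (SE 0.23, adjusted p = 2.5e-05), and FCRLA from 0.2 and 0.306 to 1.05 and 2.38, a value of 2.73 (SE 0.55, adjusted p = 0.003). FCER2 (CD23) had 4 summed counts in H929 with ethanol and 21 with fluvastatin, a CPM ratio of 6.0 (exact 95% binomial interval 2.02 to 24.0), and it passed the filter on low counts only through the fluvastatin libraries of H929, so that its call is not independent of the filter. CD24, a surface protein of early B cells, rose by 1.90 (SE 0.49, adjusted p = 0.011). The calls of FCER2 and CD24 were lost without H929 ethanol replicate 1 (adjusted p = 0.078 and 0.092) or H929 fluvastatin replicate 2 (0.092 and 0.11), and that of FCER2 also without H929 ethanol replicate 2 (0.16). Without any single H929 library the list had fewer calls, and the share of all genes past the threshold was lower too. Within KMS11, edgeR called 0 of the list and DESeq2 1, where they called 3.12% and 6.49% of all genes. In ethanol CR2, the complement receptor, was higher in KMS11 by 7.55 (SE 0.24, adjusted p = 5.1e-09) and CIITA, the activator of MHC class II genes, by 6.53 (SE 0.29, adjusted p = 4.6e-08).

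Of 17 further transcription factors of the B lineage 15 were tested. In H929 7 rose and 3 fell, where 42% of all genes changed, at a median of 0.22 against 0.02. MYB, a factor of immature and cycling blood cells, went from 50.8 and 54.2 CPM to 9.87 and 12.2, a log2 fold change of -2.25 (SE 0.12, adjusted p = 2.4e-06). SPIB, an ETS factor that can bind DNA together with IRF4, had 1 summed count in H929 with ethanol and 24 with fluvastatin, a CPM ratio of 27.4 (exact 95% binomial interval 4.47 to 1130). ZEB2 rose by 1.72 (SE 0.34, adjusted p = 0.0026). Within KMS11 edgeR called 0 of the 15 and DESeq2 2, where they called 3.12% and 6.49% of all genes. In ethanol 7 were higher in KMS11 and 4 lower, where 72% of all genes differed, so that the count is not particular to them. ETS1 was higher by 4.49 (SE 0.13, adjusted p = 3.6e-09), BCL11A by 4.17 (SE 0.20, adjusted p = 6.4e-08) and TCF4 by 4.05 (SE 0.10, adjusted p = 1.2e-09).

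Among 22 family relatives of the members 21 were tested. In H929 9 rose and 4 fell, where 42% of all genes changed, at a median of 0.39 against 0.02. MEF2B, an activator of BCL6 in germinal centres, had 5 summed counts with ethanol and 26 with fluvastatin in H929, a CPM ratio of 5.94 (exact 95% binomial interval 2.24 to 19.8). It too passed the filter only through the H929 fluvastatin libraries, and without it 8 relatives rose. BCL6B fell by 2.00 on the log2 scale (SE 0.45, adjusted p = 0.0059). The call of MEF2B was lost without 5 of the libraries (adjusted p from 0.064 to 0.18), H929 ethanol replicate 1 and both KMS11 fluvastatin replicates excepted. The count of 13 was lower with any single H929 library left out, and so was the share of all genes past the threshold. BACH1 and PRDM2 were among those that rose in H929 (0.41 and 0.39, adjusted p = 0.018 and 0.0072). Their responses in KMS11 minus those in H929 were 0.24 and 0.02 (adjusted p = 0.31 and 0.97). In KMS11, where 3.12% of all genes changed, the 2 that rose were also BACH1 (0.65, SE 0.12, adjusted p = 0.017) and PRDM2 (0.40, SE 0.09, adjusted p = 0.044). BACH1 lost its call without KMS11 ethanol replicate 1 or 2 (adjusted p = 0.22 and 0.25), and PRDM2 without each of the 8 libraries in turn (0.057 to 0.38). IRF8, which pairs with ETS factors in B cells, had 0 counts in H929 with ethanol and was at least 277-fold higher in KMS11 with ethanol, against a floor of 3 counts over the group.

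The 16 cofactors and cereblon ligase genes, all tested, had 7 calls in H929, a share near the 42% of all genes that changed there. Of these 3 rose and 4 fell, at a median of 0.05 against 0.02. Cereblon (CRBN), the receptor through which lenalidomide reaches IKZF1 and IKZF3, rose by 0.41 on the log2 scale (adjusted p = 0.019). CUL4B, a scaffold of that ligase, rose by 0.41 (SE 0.10, adjusted p = 0.01). DDB1, also a part of the ligase, fell by 0.31 (adjusted p = 0.018). CUL4A (0.26) and RBX1 (-0.17) did not pass the threshold (adjusted p = 0.071 and 0.29). HDAC1, MTA2 and BCOR, subunits of corepressor complexes, fell by 0.48, 0.46 and 0.44 on the log2 scale (SE 0.10, 0.10 and 0.11, adjusted p = 0.003, 0.0057 and 0.0088). CRBN, DDB1, CUL4A and RBX1 were named here after their values were seen. Without H929 fluvastatin replicate 2 the calls of MTA2, BCOR and CUL4B were lost (adjusted p = 0.054, 0.065 and 0.066), and without H929 ethanol replicate 1 those of BCOR and CUL4B (0.059 and 0.079). The count of 7 was lower with any single H929 library left out, as was the share of all genes past the threshold. In KMS11, where 3.12% of all genes changed, 1 gene rose, MAFF, a small Maf protein and so a partner of BACH2, by 1.58 (SE 0.34, adjusted p = 0.04). The call of MAFF was lost without KMS11 ethanol replicate 1 or 2 or KMS11 fluvastatin replicate 1, at values of 1.32, 1.83 and 1.5. Of 12 markers of T, NK, myeloid, erythroid, stromal and endothelial cells, 3 were tested and CD3E rose in H929 by 1.13 (SE 0.23, adjusted p = 0.0031).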

How the data were processed

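RNA was measured in 8 libraries, 2 biological replicates of H929 and of KMS11 with ethanol or with 2 µM fluvastatin for 24 h, grouped by the sample labels. Stranded libraries were made from total RNA after removal of ribosomal RNA. The submitters' processing notes name STAR 2.5.2b, RSEM 1.3.0 and hg38, and the annotation was GENCODE release 26. The deposited expected counts are fragments assigned to each gene by RSEM, with shared fragments divided, and are not normalized. The deposited TPM values are scaled for effective length by the authors, and the deposited length column is weighted by isoform abundance. FPKM values were not used here.

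Names and positions came from GENCODE release 44 on GRCh38, which holds 57392 of 58219 identifiers. Expected counts were rounded, and protein-coding genes were kept by edgeR's filterByExpr (minimum count 10, minimum total 15), scaled by TMM and fitted with its quasi-likelihood F test (R 4.3.3, edgeR 4.0.16), with Benjamini-Hochberg adjustment over 13129 genes and a threshold of 0.05. The response across both lines had terms for line and treatment. The other comparisons were contrasts of the 4 group means. The standard error is the log2 fold change divided by the square root of F, and 95% intervals are normal intervals from it. With few replicates these are narrower than the F test allows, so that an interval without 0 is not a call. The fit was tested on simulated data. Total counts were from 26702515 to 41910446, so that counting error matters mainly for POU2F2, BCL6 and PAX5.

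The members and gene lists were chosen with earlier results of these data known. Some list genes are not reported here, and the counts of lists and of alternatives leave them out. Named genes are all members, up to 4 genes of each list with the largest change past the threshold within H929, within KMS11 and between the lines in ethanol, and the 2 genes nearest to each member with at least 10 counts in all libraries. Some other list genes were named after their values were seen, as stated where they appear. Alternatives used DESeq2 1.42.0, limma 3.58.1 on log2(TPM + 1), other scalings, filters and thresholds, a replicate block and single libraries left out. The fit of group means had a common dispersion of 0.0125, the spread between replicates beyond counting error.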

Additional observations from a re-analysis of the deposited data

Results flagged for a closer look

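Fluvastatin had unlike effects in the lines for 7 of the 9 regulators tested by edgeR's test of the difference itself, where 23.2% of all genes tested differed, and for 2 without KMS11 ethanol replicate 1. Each is given as KMS11 minus H929 on the log2 scale. MEF2C differed by -1.44, from a rise of 0.96 in H929 and a value of -0.48 in KMS11 (adjusted p = 0.00015). BCL6 differed by -2.45, BACH2 by -1.17 and POU2F2 by -1.86, where the fitted values of both lines were positive and that of H929 was larger. The KMS11 values of BCL6 and POU2F2 were negative by limma on log2(TPM + 1), at -0.22 and -0.16 (adjusted p = 0.16 and 0.44). IKZF1 differed by -0.66 and PRDM1 by -0.46, with positive values in H929 and values in KMS11 of -0.30 and -0.14 that did not pass the threshold. POU2AF1 differed by 0.51, with a fall in H929 of -0.59 against -0.09 in KMS11. By limma on log2(TPM + 1) the differences of POU2AF1, IKZF1 and POU2F2 were 0.13, -0.41 and -0.31. They did not pass the threshold there (adjusted p = 0.64, 0.17 and 0.23).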

How the results depend on the processing

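Members past the threshold between the lines in ethanol numbered 8 or 9 under every alternative run, and 8 to 9 without single libraries. Across both lines, where edgeR called 2, DESeq2 called 4, limma on log2(TPM + 1) 0, an adjusted p under 0.01 left 0, and no term for the cell line left 0, with 0 to 3 without single libraries. Within H929 the 8 calls became 5 with limma on log2(TPM + 1), and 6 to 8 without single libraries. Within KMS11 the 1 call became 2 with DESeq2, 2 with no filter on low counts, 0 with limma, 0 at an adjusted p under 0.01 and 0 to 2 without single libraries. The 7 differences between the lines became 4 with limma, 4 at an adjusted p under 0.01 and 2 to 7 without single libraries. Shares over all genes moved with these settings too. Across both lines 10.4% became 19.3% with DESeq2, 8.36% with limma and 1.23% at an adjusted p under 0.01. Within H929 42% became 32% with limma. Within KMS11 3.12% became 6.49% with DESeq2, 6.66% with no filter and 1.7% with limma. For the differences 23.2% became 15.5% with limma and 9.58% at an adjusted p under 0.01. The following alternatives were chosen after seeing the data. With each library's trend with GC content removed, 4 members were called within KMS11 (BACH2, IKZF1, IKZF3 and MEF2C), where 11.8% of all genes were in place of 3.12%, and the difference of POU2AF1 was 0.29 (adjusted p = 0.092). With only the libraries of the line, 0 were called within KMS11. Of 846 values of members under alternatives, 764 kept their direction and side of the threshold, 61 lost the call, 12 gained it and 9 changed sign, none of them past the threshold in either fit. By limma these were BCL6 and POU2F2 within KMS11 (-0.22 and -0.16 in place of 0.50 and 0.21), PRDM1 and POU2F2 across both lines (both within 0.01 of 0) and POU2AF1 in ethanol (0.21 in place of -0.15, and 0.10 with the GC offset). IKZF1 across both lines, at 0.05, was -0.04 to -0.01 without H929 ethanol replicate 1 or 2 or fluvastatin replicate 2. Of 883 values of the other genes named by the stated rule and reported here, 800 kept both and 83 lost the call. Counts of list genes moved as well. Within H929, at an adjusted p under 0.01, plasma cell genes went from 14 to 9, B cell genes from 5 to 2, family relatives from 13 to 7 and cofactors from 7 to 3. With limma, other B lineage factors went from 10 to 6 and family relatives from 13 to 4, with the GC offset cofactors from 7 to 14, and with no filter the markers of other cells from 1 to 2. A stricter filter left 2 of 5 B cell genes within H929 and 3 of 6 between the lines in ethanol. Within KMS11, counts over all alternatives were 0 to 7 for plasma cell genes, 0 to 2 for B cell genes, 0 to 5 for other B lineage factors, 0 to 4 for family relatives and 0 to 4 for cofactors. The limits are 2 replicates a group and, for POU2F2, BCL6 and PAX5 in H929, few counts.

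The labels do not say that a replicate number marks a shared batch, and the numbers were not used as pairs. Deviations of same-numbered libraries from their group means went together in H929 (correlation 0.774) and not in KMS11 (-0.078), over 5555 genes. With a replicate block, 0 members were called across both lines (adjusted p = 0.08 for both BACH2 and IKZF3), where 1.2% of all genes were in place of 10.4%. Within KMS11 3 were called (BACH2, IKZF3 and MEF2C), where 12.5% of all genes were in place of 3.12%, and the other counts of members stayed at 8, 7 and 8. Between the lines in ethanol same-numbered libraries had a correlation of -0.123, and a crossed block, chosen after seeing the data, called 8.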
